A study of Mus musculus with 20 samples.

Results

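The desmosome genes examined here were Dsg1a, Dsg1b, Dsg2, Dsg3, Dsc1, Dsc2, Dsc3, Jup, Pkp1 and Dsp. They were taken by gene symbol from the table of counts and made up 10 of its 22090 genes. All 10 were counted in every sample and all 10 passed the filter on low counts in every comparison. RNA-seq had been performed on normal skin (NS, n = 8), actinic keratoses (AK, n = 8), which are premalignant lesions of sun-damaged skin, and cutaneous squamous cell carcinoma (cSCC, n = 4). The tissues came from 8 female SKH-1 mice, a hairless strain whose skin forms lesions under ultraviolet radiation. The mice were 7 months old when assigned to their groups, and tissues were taken after the weeks of irradiation that followed, so they came from older animals. Of these, 4 mice were not irradiated and gave 1 NS each, and 4 were irradiated and gave normal skin and all of the lesions, so the 8 AK stand for 4 mice. The labels do not say which NS was irradiated or which tissues share a mouse. Tests therefore treated the tissues as separate samples, and p-values measure only the spread between these tissues.

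Desmosomes are the junctions that hold keratinocytes together and anchor their keratin filaments. Their adhesive part is made of desmosomal cadherins, the desmogleins (Dsg) and desmocollins (Dsc), whose cytoplasmic tails bind the armadillo proteins plakoglobin (Jup) and plakophilin (Pkp), and these bind desmoplakin (Dsp), which holds the keratins. In stratified epidermis the cadherin isoforms are layered: Dsg3 and Dsc3 are strongest in the basal layers, desmoglein 1 and Dsc1 in the upper layers, and Dsg2 and Dsc2 are the isoforms of simple epithelia and of the heart.

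The cadherin members lie in 1 cluster on chromosome 18 of GRCm38. The desmocollin genes run from 19960930 (Dsc3) to 20114871 (Dsc1) on the minus strand, and the desmoglein members run from 20310811 (Dsg1a) to 20604521 (Dsg2) on the plus strand. Dsg1a and Dsg1b, together with Dsg1c between Dsc1 and Dsg1a, are near-identical copies of desmoglein 1. How reads shared by such copies were counted is not stated, so the split between Dsg1a and Dsg1b is uncertain. An antisense gene (Gm16090) overlaps Dsg2 and a gene on the opposite strand (Gm10129) overlaps Dsp. Neither Gm16090 nor Gm10129 is in the table of counts. The strand used in counting is not stated.

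Total counts per sample ranged from 775750 in cSCC 20 to 14055206 in AK 10, and 3 counts, taken as the limit of detection, corresponded to 0.225 to 3.78 CPM (counts scaled to library size with TMM factors). Of the 4 cSCC libraries, 3 stood apart from the others. Haemoglobin genes took 46.8% of the counts of cSCC 18 and at most 14.3% in any other sample. The TMM factor of cSCC 18 was 0.509, against at least 0.852 in every other sample, which raises its CPM. Where its levels lie against NS and AK can therefore depend on this scaling. In cSCC 21 the summed level of 9 heart muscle markers was 55250 CPM, against 8.72 to 74.4 CPM in NS and AK and 70.9 to 157 CPM in the other cSCC. In cSCC 20 the summed level of 6 lung epithelium markers was 35810 CPM, against at most 51.7 CPM elsewhere. Markers of keratinocytes (Krt5, Krt14, Krt1, Krt10 and Krt15) summed to 6603 to 18620 CPM in NS, 8861 to 16510 in AK and 17800, 16740, 5046 and 3701 in cSCC 18, 19, 20 and 21, so keratinocyte transcripts were present in every library and lowest in cSCC 20 and 21. The 5 endothelial markers summed to 91.0 to 489 CPM in cSCC against 18.6 to 81.5 CPM in NS and AK. No defining marker of keratinocytes was at 0 in any group. The part of these admixed transcripts in the results was not tested. The members' results, and at the end those of the other gene lists, are also given without cSCC 20 and 21 where this changed a call. In bulk tissue, fewer keratinocytes and less RNA per keratinocyte cannot be told apart.

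Together the desmosome genes took 0.316% to 0.744% of all counts in NS, 0.410% to 0.679% in AK, and 0.164%, 0.247%, 0.152% and 0.139% in cSCC 18 to 21. With haemoglobin counts left out of the total, a choice made after seeing the data, cSCC 18 was at 0.309%, close to the lowest NS (0.320%), and the other cSCC were at 0.148% to 0.251%. Per kilobase of exon, the median level in NS was 263 CPM per kb for Dsg1a, 214 for Dsp, 149 for Dsc3, 132 for Pkp1 and 29.8 for Jup. Below these came Dsg1b (12.3 CPM per kb), Dsc1 (10.4), Dsg3 (5.07), Dsg2 (4.66) and Dsc2 (3.96). The ranges of all neighbours in this order overlapped except those of Pkp1 and Jup, and within samples Dsg3 exceeded Dsg2 in 5 of 8 NS and Dsg2 exceeded Dsc2 in 4 of 8. In AK the order was the same down to Dsg1b, and Dsc2 (14.9 CPM per kb) ranked above Dsc1 (12.8). In cSCC the order was Dsp (86.2 CPM per kb), Pkp1 (66.1), Dsc3 (39.3), Dsc2 (28.0), Jup (24.1) and Dsg1a (9.999). Every pair of neighbours in the cSCC order overlapped. Dsg1a thus stood at rank 1 in NS and rank 6 in cSCC, and Dsc2 at rank 10 in NS and rank 4 in cSCC.

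**Figure D1:**
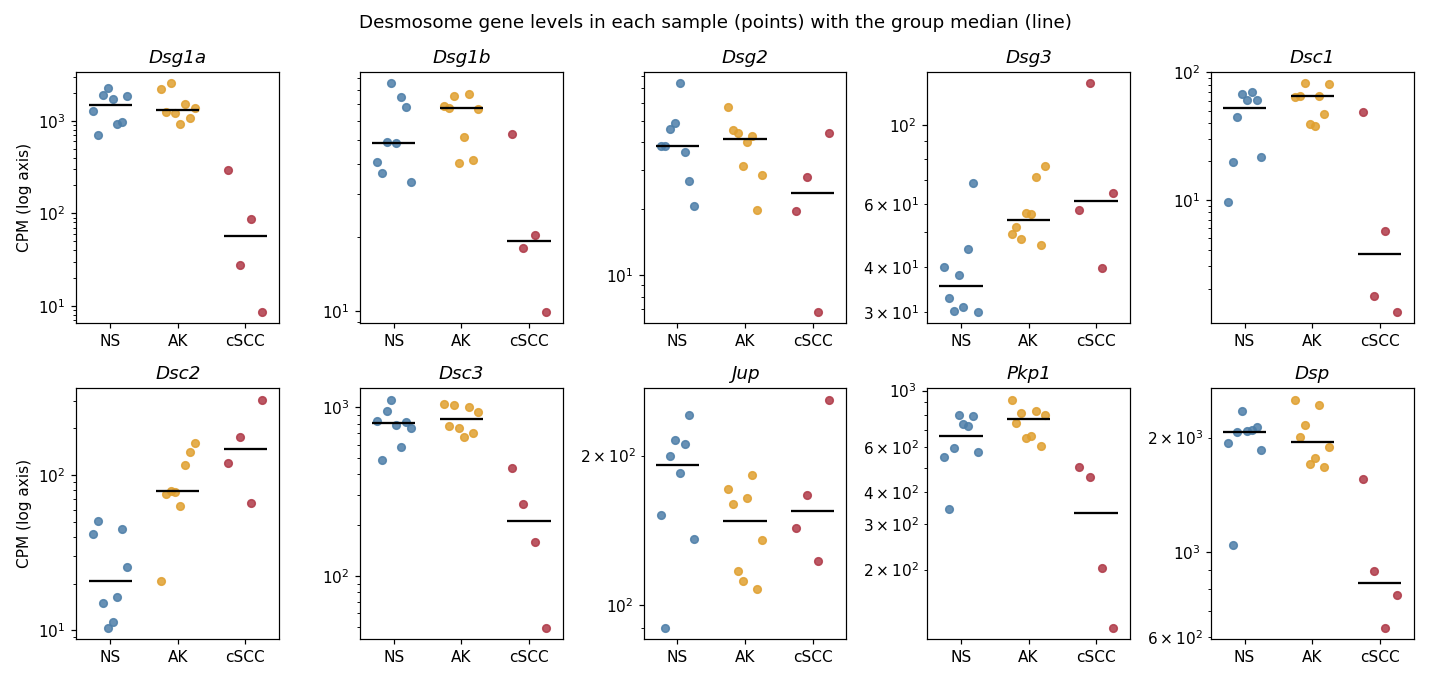
Level of each desmosome gene in every sample, in CPM on a log axis, for NS (n = 8), AK (n = 8) and cSCC (n = 4), where points are samples and lines are group medians. All 4 cSCC lie below every NS for Dsg1a and Dsc3 and above every NS for Dsc2.

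Desmogleins. Dsg1a is one of the mouse copies of desmoglein 1, the desmoglein of the upper epidermis. Its level was 711 to 2269 CPM in NS (median 1496), 926 to 2554 CPM in AK (median 1309), and 292, 27.2, 86.5 and 8.60 CPM in cSCC 18, 19, 20 and 21. All 4 cSCC were below the lowest NS and the lowest AK, and the highest cSCC value belonged to the library rich in haemoglobin. Dsg1a fell 13.8-fold in cSCC vs. NS (log2 fold change -3.79, SE 0.81, adjusted p = 0.00709 by edgeR's quasi-likelihood test) and 14.1-fold in cSCC vs. AK (log2 fold change -3.82, SE 0.77, adjusted p = 0.00454). The comparisons with AK and NS share the 4 cSCC. Without cSCC 18 the log2 fold changes were -5.17 vs. NS and -5.22 vs. AK, and without both cSCC 20 and 21 they were -3.18 (adjusted p = 0.0247) and -3.22 (adjusted p = 0.0125). The log2 fold change of Dsg1a in AK vs. NS was 0.04 (SE 0.26, adjusted p = 0.939).

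Dsg1b, the second desmoglein 1 copy, was far lower than Dsg1a in normal skin. Its level was 33.6 to 85.3 CPM in NS (median 48.7), 40.4 to 76.8 CPM in AK (median 67.3), and 52.8, 18.02, 20.5 and 9.92 CPM in cSCC 18 to 21. Of the cSCC, 3 lay below every NS and AK, and cSCC 18 lay inside both ranges, a place that rests on its low TMM factor. Dsg1b fell 2.30-fold in cSCC vs. AK (log2 fold change -1.20, SE 0.37, adjusted p = 0.0296 by the same test). In cSCC vs. NS it did not pass the test (log2 fold change -1.08, SE 0.42, adjusted p = 0.0815). The call against AK was lost when AK 15, AK 17, cSCC 19, cSCC 20 or cSCC 21 was left out (adjusted p up to 0.0753), and without both cSCC 20 and 21 the log2 fold change was -0.75 (adjusted p = 0.204). Without cSCC 18 it was -1.92 vs. AK, and vs. NS the gene then passed (log2 fold change -1.76, adjusted p = 0.00599). With all samples it also passed vs. NS with library size alone (adjusted p = 0.0112), with at least 10 counts in every sample (adjusted p = 0.0455) and with all 20 samples in 1 fit (adjusted p = 0.0236), and missed the threshold vs. AK in limma voom (adjusted p = 0.0681).

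Dsg3, the desmoglein of the basal and lower spinous layers, moved the other way. Its level was 30 to 68.8 CPM in NS (median 35.4), 46.2 to 76.6 CPM in AK (median 54.0), and 57.7, 130.5, 39.8 and 64.5 CPM in cSCC 18 to 21. Only cSCC 19 lay above every NS and AK. Dsg3 rose 1.93-fold in cSCC vs. NS (log2 fold change 0.95, SE 0.31, adjusted p = 0.0461 by edgeR's quasi-likelihood test). This call was lost when any of 7 of the 8 NS, cSCC 19 or cSCC 21 was left out. Without cSCC 19 the log2 fold change was 0.52 (adjusted p = 0.254), and without both cSCC 20 and 21 it was 1.29 (adjusted p = 0.0294). In AK vs. NS the log2 fold change was 0.52 (SE 0.18, adjusted p = 0.0843), with 2 of 8 AK above every NS, and without NS 8, the highest NS, the gene passed (log2 fold change 0.67, adjusted p = 0.0157), as it did with all samples in limma voom (0.65, adjusted p = 0.0168). In cSCC vs. AK it was 0.49 (SE 0.28, adjusted p = 0.216).

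Dsg2 is the desmoglein of simple epithelia and heart muscle. Its level was 20.6 to 73.8 CPM in NS (median 38.5), 19.8 to 57.5 CPM in AK (median 41.3), and 19.4, 27.7, 6.83 and 43.8 CPM in cSCC 18 to 21. The groups overlapped, and the highest cSCC value was in cSCC 21, the library with heart muscle transcripts. The gene passed no comparison, with log2 fold changes of -0.10 (95% interval -0.60 to 0.40) in AK vs. NS, -0.65 (-1.54 to 0.25) in cSCC vs. NS and -0.47 (-1.31 to 0.38) in cSCC vs. AK.

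These levels changed the make-up of the desmoglein counts within each library, a share that does not depend on the scaling of the libraries. Dsg1a made up 85.7% to 95.7% of the counts of the 4 desmoglein members in NS (median 91.6%) and 86.2% to 93.8% in AK (median 89.8%). In cSCC 18, 19, 20 and 21 it made up 69.2% (95% Wilson interval 65.4 to 72.7), 13.4% (10.6 to 16.8), 56.3% (47.9 to 64.4) and 6.78% (5.21 to 8.78). Dsg3 made up 1.47% to 6.004% in NS and 1.76% to 5.25% in AK, against 13.7%, 64.2%, 25.9% and 50.9% in cSCC 18 to 21. Dsg3 was thus the main desmoglein in cSCC 19 and 21, and Dsg1a remained so in cSCC 18 and 20. In cSCC 21 Dsg2 made up 34.6% of desmoglein counts, against at most 4.71% in NS and AK and 13.6% in cSCC 19. The intervals cover counting error only.

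**Figure D2:**
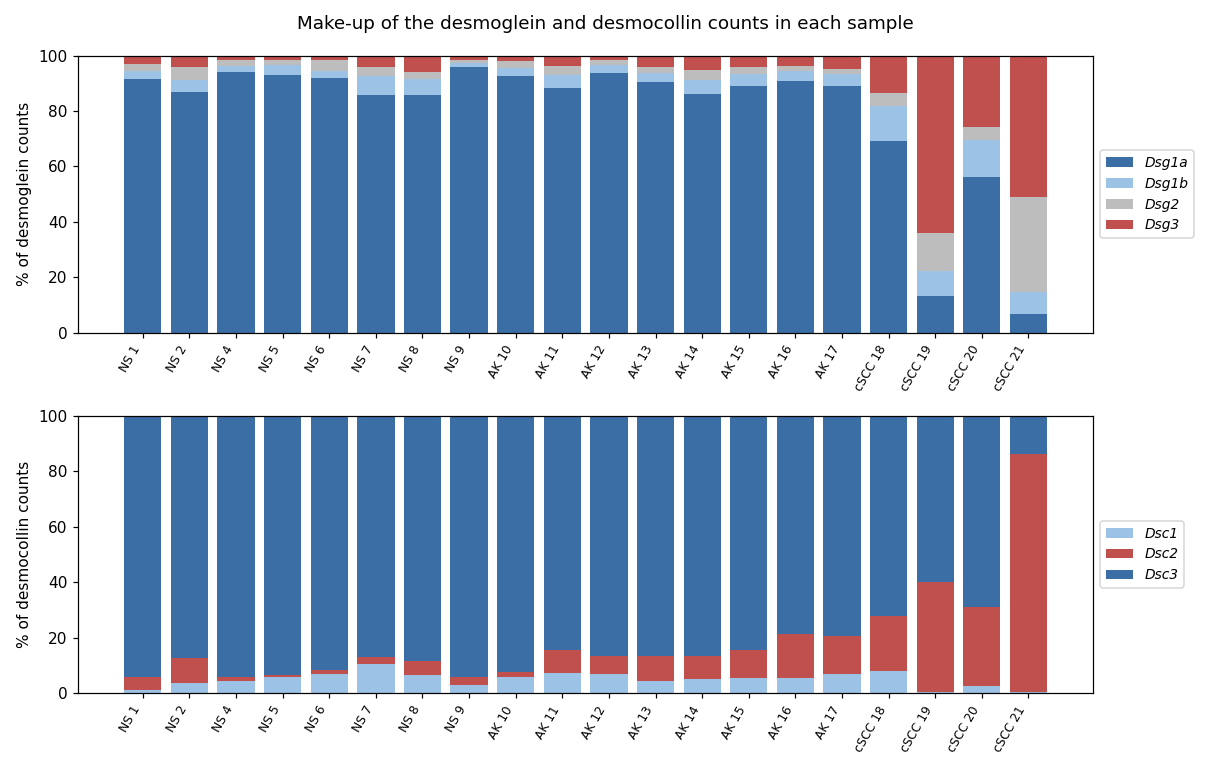
Percent of the counts of the 4 desmoglein members (upper panel) and of the 3 desmocollins (lower panel) taken by each gene in each of the 20 samples. Dsg1a and Dsc3 (dark blue) take at least 85.7% and 78.8% of their family in every NS and AK, and Dsg3 and Dsc2 (red) take larger shares in each cSCC.

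Desmocollins. Dsc2, the desmocollin of simple epithelia and heart, was the only member called in AK. It was 10.4 to 50.4 CPM in NS (median 20.9), 20.7 to 161.6 CPM in AK (median 78.7), and 119.5, 176.2, 66.0 and 306.8 CPM in cSCC 18 to 21. Of the 8 AK, 7 lay above every NS, and AK 10 (20.7 CPM) lay just below the NS median. All 4 cSCC lay above every NS. Dsc2 rose 3.35-fold in AK vs. NS (log2 fold change 1.75, SE 0.39, adjusted p = 0.0209 by edgeR's quasi-likelihood test) and 6.48-fold in cSCC vs. NS (log2 fold change 2.70, SE 0.47, adjusted p = 0.00284), the 2 comparisons sharing the 8 NS. The AK call held when each sample was left out in turn (adjusted p = 0.00604 to 0.0486) and was lost when all 20 samples shared 1 fit (log2 fold change 1.76, adjusted p = 0.0761). In cSCC vs. AK the groups overlapped and the log2 fold change was 1.02 (95% interval 0.04 to 2.00, adjusted p = 0.117). The highest value belonged to cSCC 21, the library with heart muscle transcripts, and without both cSCC 20 and 21 the gene still passed vs. NS (log2 fold change 2.48, adjusted p = 0.00902).

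Dsc3, the main epidermal desmocollin and the partner of Dsg3 in the lower layers, was 484 to 1110 CPM in NS (median 804), 665 to 1041 CPM in AK (median 857), and 437, 267, 158 and 49.1 CPM in cSCC 18 to 21. All 4 cSCC were below every NS and AK, although cSCC 18 was close to the lowest NS. Dsc3 fell 3.36-fold in cSCC vs. NS (log2 fold change -1.75, SE 0.47, adjusted p = 0.0196 by edgeR's quasi-likelihood test) and 3.58-fold in cSCC vs. AK (log2 fold change -1.84, SE 0.43, adjusted p = 0.0089). Without both cSCC 20 and 21 the call vs. NS was lost (log2 fold change -1.14, adjusted p = 0.0571) and that vs. AK was kept (log2 fold change -1.23, adjusted p = 0.0142). In AK vs. NS the log2 fold change was 0.11 (SE 0.17, adjusted p = 0.718). Dsg3 and Dsc3, both isoforms of the lower layers, were therefore called in opposite directions in cSCC vs. NS. The Dsg3 side of this contrast is weak, since its call was lost in 9 of the settings that left out 1 sample.

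Dsc1, the desmocollin of the upper epidermis, varied widely between samples of a group (coefficient of variation 54.2% in NS and 159.8% in cSCC). Its level was 9.68 to 69.7 CPM in NS (median 52.5), 37.7 to 82.0 CPM in AK (median 64.8), and 48.6, 1.76, 5.69 and 1.32 CPM in cSCC 18 to 21. In cSCC 19, 20 and 21 these levels rested on 4, 5 and 8 counts and lay below every NS, whereas cSCC 18 lay inside the NS and AK ranges. The place of cSCC 18 inside the AK range rests on its low TMM factor. With all samples the gene passed in neither comparison (log2 fold change -1.63, SE 0.85, adjusted p = 0.191 vs. NS and -2.06, SE 0.74, adjusted p = 0.055 vs. AK, by edgeR's quasi-likelihood test). The result vs. AK depended on the method, since with all samples the gene passed in DESeq2 (adjusted p = 0.0203), in limma voom (adjusted p = 0.02), with library size alone (adjusted p = 0.0101) and with all 20 samples in 1 fit (adjusted p = 0.0298). With library size alone it also passed vs. NS (adjusted p = 0.0412). Without cSCC 18 the gene passed in both (log2 fold change -4.18, adjusted p = 0.0028 and -4.67, adjusted p = 0.000174). Between AK and NS the log2 fold change was 0.43 (SE 0.33, adjusted p = 0.43).

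Among desmocollin counts, Dsc3 took 87.2% to 94.1% in NS and 78.8% to 92.5% in AK, against 72.2%, 59.98%, 68.8% and 13.8% in cSCC 18 to 21. Dsc2 took 0.871% to 9.10% in NS (median 2.81%) and 1.84% to 15.9% in AK (median 8.65%). In cSCC 18, 19, 20 and 21 it took 19.8% (95% Wilson interval 17.2 to 22.5), 39.6% (36.7 to 42.7), 28.7% (22.9 to 35.3) and 85.9% (84.4 to 87.3). Every cSCC thus exceeded every AK in the share of Dsc2, and the share was highest in cSCC 21, the library with heart muscle transcripts, whose part in it was not tested.

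Isoform ratios within each sample were then compared, as they do not depend on library size. There were 4 ratios and 3 comparisons, tested by two-sided exact permutation and adjusted over the 12 tests. These adjusted p-values cannot be set beside those adjusted over all genes. The ratios use the same counts as the calls of single genes above, so they are not separate evidence for them. With 4 against 8 samples the smallest p these permutations can give is 0.00202. Dsg3 was 0.0154 to 0.0656 of Dsg1a and Dsg1b together in NS and 0.0185 to 0.0579 in AK, and 0.168, 2.87, 0.376 and 3.47 in cSCC 18 to 21. The cSCC lay above all other samples, by 5.05 on the log2 scale vs. NS and 4.57 vs. AK in the mean (exact permutation p = 0.00202 and adjusted p = 0.00606 for both). The ratio in AK differed from NS by 0.48 (exact permutation p = 0.197, adjusted p = 0.222).

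The ratio of Dsc2 to Dsc3 was 0.00943 to 0.105 in NS, 0.0199 to 0.202 in AK, and 0.274, 0.661, 0.419 and 6.24 in cSCC 18 to 21. It rose stepwise between groups, by 1.66 on the log2 scale in AK vs. NS (exact permutation p = 0.0106, adjusted p = 0.0211), 4.80 in cSCC vs. NS and 3.14 in cSCC vs. AK (p = 0.00202, adjusted p = 0.00606 for both by exact permutation). The cSCC did not overlap with the others, whereas AK and NS overlapped. The ratio of Dsg2 to Dsg3 was 0.391 to 2.37 in NS and 0.371 to 1.16 in AK, and 0.341, 0.213, 0.183 and 0.680 in cSCC 18 to 21. It was lower by 1.72 on the log2 scale in cSCC than in NS (exact permutation p = 0.00606, adjusted p = 0.0146). The log2 difference vs. AK was -1.09 (exact permutation p = 0.0263, adjusted p = 0.045), and this call was lost in 9 of the 12 settings that left out 1 sample. The ratio of Dsc3 to Dsc1 passed in no comparison (adjusted p = 0.222, 0.432 and 0.0636 by exact permutation for AK against NS, cSCC against NS and cSCC against AK, in that order). Without both cSCC 20 and 21 the differences of the 3 other ratios kept their direction, at adjusted p = 0.0381 by exact permutation in each comparison with cSCC. With 2 cSCC left the permutations are few, and each p was the smallest they can give. This shared value therefore does not measure how stable the differences are.

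**Figure D3:**
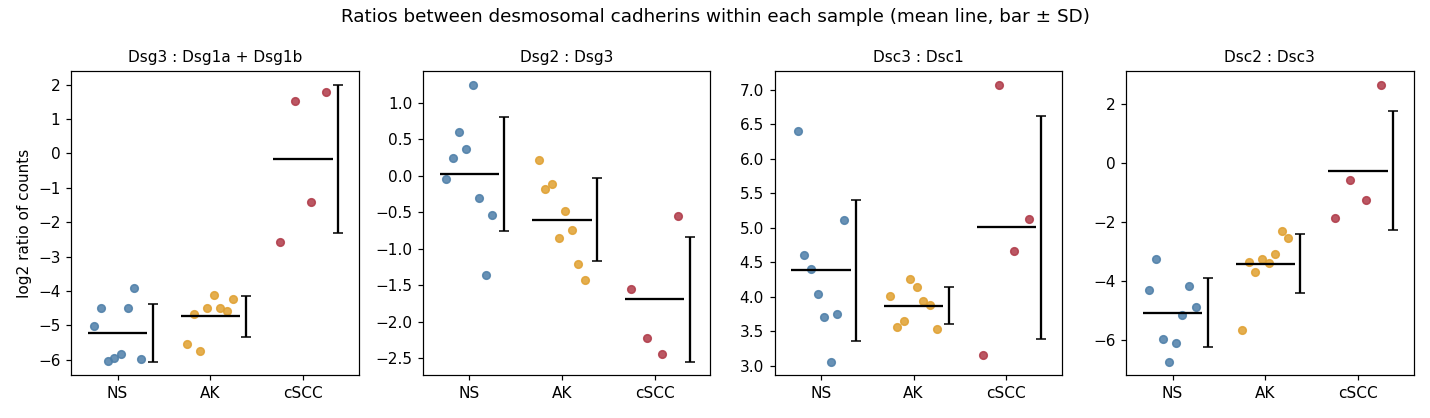
Log2 ratios of counts between desmosomal cadherins within each sample, for NS (n = 8), AK (n = 8) and cSCC (n = 4), where points are samples, lines are means and bars are ± SD. The 4 cSCC lie above all NS and AK for Dsg3 to Dsg1a + Dsg1b and for Dsc2 to Dsc3, and overlap with both for Dsc3 to Dsc1.

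Armadillo proteins. Pkp1, the plakophilin of suprabasal keratinocytes that clusters the cadherins and recruits desmoplakin, was 346 to 801 CPM in NS (median 662), 609 to 922 CPM in AK (median 773), and 502, 460, 204 and 118 CPM in cSCC 18 to 21. All 4 cSCC lay below every AK, and cSCC 20 and 21 also lay below every NS. Pkp1 fell 2.21-fold in cSCC vs. AK (log2 fold change -1.14, SE 0.34, adjusted p = 0.0259 by edgeR's quasi-likelihood test) and did not pass in cSCC vs. NS (log2 fold change -0.95, SE 0.39, adjusted p = 0.0972). The call vs. AK was lost without cSCC 20 (log2 fold change -0.98, adjusted p = 0.0654) and without both cSCC 20 and 21 (-0.58, adjusted p = 0.114). Without cSCC 18 the gene passed vs. NS (-1.27, adjusted p = 0.036), as it did with all samples in limma voom (adjusted p = 0.0475), with library size alone (adjusted p = 0.0361) and with all 20 samples in 1 fit (adjusted p = 0.0227). The AK vs. NS log2 fold change was 0.22 (SE 0.16, adjusted p = 0.408).

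Jup encodes plakoglobin, the armadillo protein shared by desmosomes and adherens junctions. Its level was 90.1 to 240.8 CPM in NS (median 192), 108 to 183 CPM in AK (median 148), and 143, 167, 123 and 259 CPM in cSCC 18 to 21. The groups overlapped, and the highest sample was cSCC 21. Jup passed in no comparison, with log2 fold changes of -0.32 (95% interval -0.70 to 0.05) in AK vs. NS, 0.02 (-0.61 to 0.65) in cSCC vs. NS and 0.41 (-0.12 to 0.95) in cSCC vs. AK. Its sign in cSCC vs. NS turned with several choices of scaling and sample.

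Plakin. Dsp encodes desmoplakin, the link from the plaque to the keratin filaments. Its level was 1046 to 2341 CPM in NS (median 2070), 1679 to 2515 CPM in AK (median 1951), and 1556, 894, 634 and 771 CPM in cSCC 18 to 21. All 4 cSCC lay below every AK, and cSCC 19, 20 and 21 below every NS. Dsp fell 1.95-fold in cSCC vs. AK (log2 fold change -0.96, SE 0.30, adjusted p = 0.032 by edgeR's quasi-likelihood test). In cSCC vs. NS the log2 fold change was also -0.96 (SE 0.35, adjusted p = 0.0689). The call vs. AK was lost when AK 10, AK 11, AK 15, AK 17, cSCC 19 or cSCC 20 was left out (adjusted p up to 0.078) and without both cSCC 20 and 21 (-0.66, adjusted p = 0.142). Vs. NS most alternatives called the gene with all samples in, namely DESeq2 (adjusted p = 0.00733), limma voom (adjusted p = 0.0103), library size alone (adjusted p = 0.0117), at least 10 counts in every sample (adjusted p = 0.0498) and all 20 samples in 1 fit (adjusted p = 0.00952). It also passed without cSCC 18 (-1.30, adjusted p = 0.0149). The log2 fold change in AK vs. NS was 0.04 (SE 0.17, adjusted p = 0.905).

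The promoters of Jup and Dsp are shown because these plaque partners differed in their calls. Only Dsp was called, and only in cSCC vs. AK, and the difference between these genes was not tested. The 250 bases before the RefSeq start are given on the strand of the gene (GRCm38.p6), at chr11:100397791-100398040 (minus strand) for Jup and chr13:38151044-38151293 (plus strand) for Dsp. Capitals mark GC boxes (GGGCGG on either strand) and CCAAT boxes (CCAAT on either strand).
Jup: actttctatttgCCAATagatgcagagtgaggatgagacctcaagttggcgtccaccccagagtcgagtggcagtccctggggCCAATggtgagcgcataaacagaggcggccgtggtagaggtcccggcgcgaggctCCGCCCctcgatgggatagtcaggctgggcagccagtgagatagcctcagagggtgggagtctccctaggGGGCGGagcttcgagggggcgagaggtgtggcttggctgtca
Dsp: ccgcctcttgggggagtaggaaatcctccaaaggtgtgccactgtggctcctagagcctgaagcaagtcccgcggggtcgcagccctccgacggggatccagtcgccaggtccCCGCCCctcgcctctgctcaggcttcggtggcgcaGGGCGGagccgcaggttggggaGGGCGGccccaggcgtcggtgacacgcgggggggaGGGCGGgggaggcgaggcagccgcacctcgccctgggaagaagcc
Jup held 2 GC boxes, at -112 and -42 from the start, and 2 CCAAT boxes, at -238 and -167. Dsp held 4 GC boxes, at -137, -102, -80 and -45, and no CCAAT box. GC boxes were found in 32.7% and CCAAT boxes in 33.9% of 32851 promoters of the same length. The AP-1 motif, TGANTCA on either strand, was in neither window and in 6.75% of all promoters. The TATA box, searched on both strands as TATAAA, was also absent from both and was in 12.4% of all promoters. The GRHL motif, searched on both strands as AACNNGTT, was likewise in neither and was in 3.64% of all promoters. The GC content was 62.0% for Jup and 72.4% for Dsp. A match is a description of the letters only.

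Counted over the members in AK vs. NS, 1 of 10 was called higher (Dsc2) and 0 lower, where 2.26% and 2.38% of the 11677 genes tested were called higher and lower. At an unadjusted p under 0.05 by edgeR, 2 members were higher (Dsc2 and Dsg3) and 0 lower, against 11.5% and 13.1% of all genes, and DESeq2 and limma voom called no member lower either. In cSCC vs. NS, 2 of 10 were called higher (Dsc2 and Dsg3) and 2 lower (Dsg1a and Dsc3), against 11.7% and 7.65% of 12097 genes. In cSCC vs. AK, 0 of 10 were called higher and 5 lower (Dsg1a, Dsg1b, Dsc3, Pkp1 and Dsp), against 16% and 8.34% of 12032 genes. At an unadjusted p under 0.05 by edgeR, 2 members were higher and 5 lower in cSCC vs. NS, against 20.6% and 13.5% of all genes. At the same limit 1 member (Dsc2) was higher and 6 were lower in cSCC vs. AK, against 24.5% and 13.9% of all genes, and DESeq2 and limma voom called no member higher. The median log2 fold change of the members was 0.13, -0.96 and -1.05 in the 3 comparisons, and that of all genes tested was -0.04, 0.14 and 0.17. With library size alone in place of TMM factors, the median of all genes shifted by -0.31 in cSCC vs. NS and -0.26 in cSCC vs. AK, and 31.9% and 43.0% of all calls were higher in place of 60.4% and 65.8%. Of the members, 7 were then called in cSCC vs. NS (1 higher, 6 lower) and 6 in cSCC vs. AK, and Dsg1a had log2 fold changes of -4.48 and -4.40. In AK vs. NS that scaling left 26.8% of all calls higher in place of 48.7%, and upper quartile factors left 32.7%. Without both cSCC 20 and 21, the calls numbered 2 higher and 1 lower vs. NS and 0 higher and 2 lower vs. AK. The share of all genes called in that setting is not given here, so these counts cannot be set against it.

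**Figure D4:**
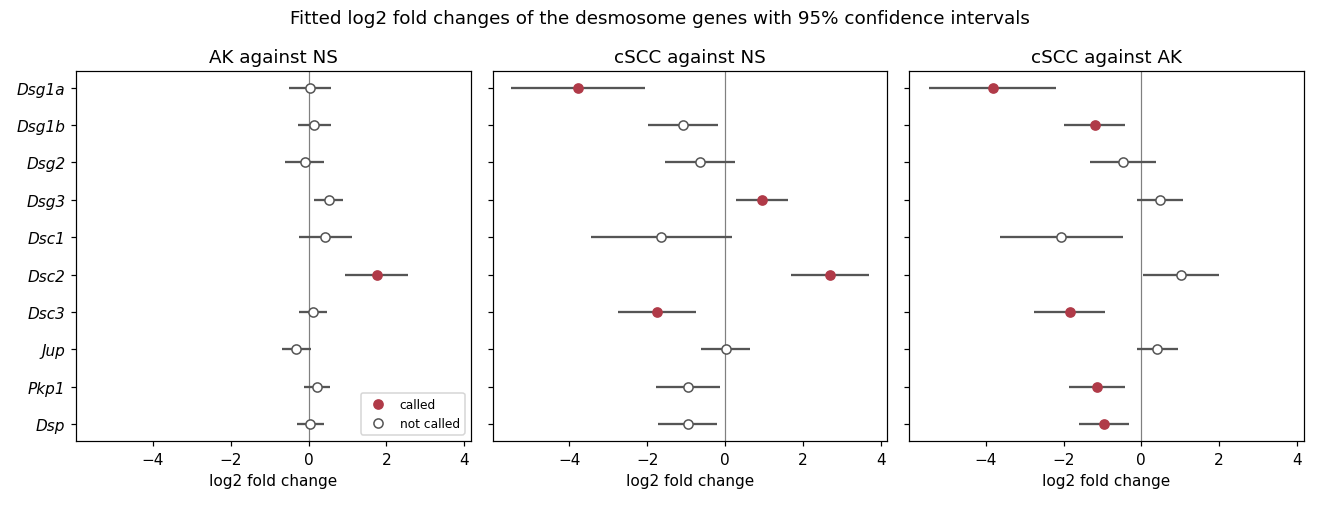
Log2 fold change of each desmosome gene in AK against NS, cSCC against NS and cSCC against AK, fitted by edgeR, with 95% confidence intervals as bars, where filled points passed an adjusted p under 0.05 and the fold limits. Dsg1a and Dsc3 lie below 0 and filled in both comparisons with cSCC, and Dsc2 lies above 0 and filled in both comparisons with NS.

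To set the members against the basal keratinocytes of the same library, their counts were divided by those of Krt5 and Krt14, the keratin pair of basal cells that binds desmoplakin. The difference in mean log2 ratio was tested by two-sided exact permutation and adjusted over all genes tested in the same way. No member passed, and neither did any other gene (0.00% higher and 0.00% lower in each of the 3 comparisons). With 4 against 8 samples no p can fall below 0.00202. After adjustment over all genes, a gene at that p passes only if many others reach it too. The lack of calls in the comparisons with cSCC therefore does not show that the members were unchanged. At an unadjusted p under 0.05, 6 members were lower in cSCC than in NS (Dsg1a, Dsg1b, Dsc1, Dsc3, Pkp1 and Dsp) and 1 was higher (Dsc2), against 11.8% and 3.53% of all genes. The same 6 were lower in cSCC than in AK and 0 were higher, against 10.2% and 10.8% of all genes. In AK vs. NS, Jup was lower and Dsc2 higher, against 25% and 2.15% of all genes.

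The mean log2 ratio to these keratins differed in cSCC vs. NS by -4.94 for Dsg1a, -2.30 for Dsc3 and -1.35 for Pkp1, each with the smallest p possible (exact permutation p = 0.00202, adjusted p = 0.0645). For Dsc1 the difference was -2.92 and for Dsg1b -1.45 (exact permutation p = 0.00404, adjusted p = 0.0895), and for Dsp it was -1.22 (exact permutation p = 0.0121, adjusted p = 0.154). Dsc2 differed by 2.501 (exact permutation p = 0.0162, adjusted p = 0.178). For Dsg1a all 4 cSCC (0.00165 to 0.0183) lay below every NS (0.0663 to 0.378) and AK (0.0864 to 0.224). For Dsc3 they also lay below every NS, at 0.0135 to 0.0333 against 0.0554 to 0.175. The ratio of Jup was 0.0163 to 0.0322 in NS and 0.0103 to 0.0179 in AK (log2 difference -0.71, exact permutation p = 0.000932, adjusted p = 0.0703). These directions depend on the reference. With Cdh1 (E-cadherin) in place of the keratins, the log2 differences in cSCC vs. NS turned to 0.58 for Pkp1, 0.70 for Dsp, 0.48 for Dsg1b and 1.72 for Jup, whereas Dsg1a (-3.01) stayed lower and Dsc2 (4.43) and Dsg3 (2.57) stayed higher. With this reference 64.8% of all genes were higher and 2.16% lower in cSCC vs. NS, and 65.1% and 1.76% in cSCC vs. AK. Cdh1 itself fell 3.05-fold in cSCC vs. NS.

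**Figure D5:**
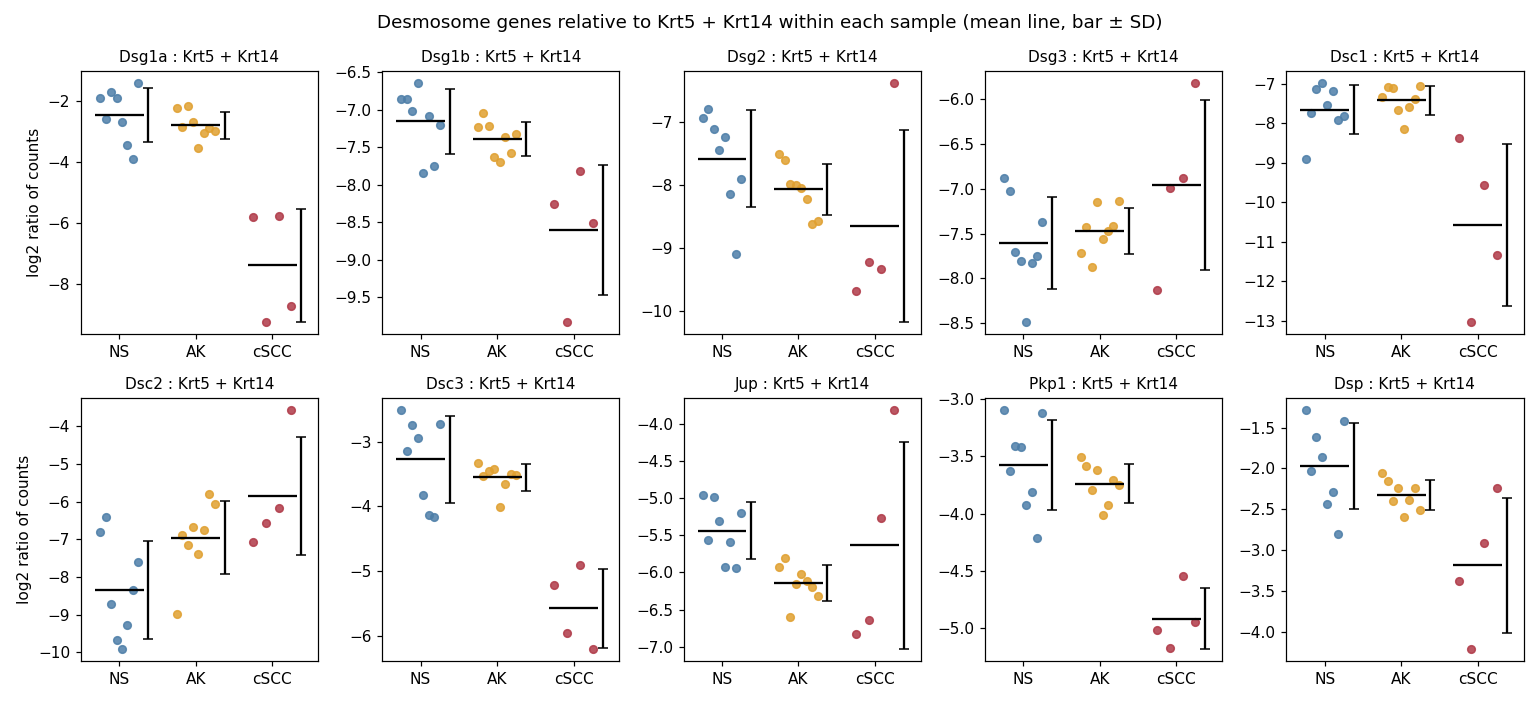
Log2 ratio of the count of each desmosome gene to the summed counts of Krt5 and Krt14 in the same sample, for NS (n = 8), AK (n = 8) and cSCC (n = 4), where points are samples, lines are means and bars are ± SD. The cSCC lie below all NS and AK for Dsg1a, Dsc3 and Pkp1, and the groups overlap for Jup.

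Other desmosome and cornified junction genes numbered 9, of which 8 were tested (Dsg4, the hair follicle desmoglein, was not). None was called in AK vs. NS, where 2.26% of all genes were called higher and 2.38% lower. In cSCC vs. NS, 1 was higher and 3 were lower, against 11.7% and 7.65% of all genes, with a median log2 fold change of -1.10. Ppl (periplakin) fell 5.63-fold (adjusted p = 0.00167 by edgeR) and Evpl (envoplakin) 2.998-fold (adjusted p = 0.0261), which are plakins of the cornified envelope, and Dsg1c, the third desmoglein 1 copy, fell 5.53-fold (adjusted p = 0.00704). In cSCC vs. AK, Ppl, Dsg1c and Perp (a tetraspan membrane protein of desmosomes) were lower, with log2 fold changes of -2.03, -2.27 and -1.26, and 1 gene was higher, against 8.34% and 16% of all genes. The gene called higher in both comparisons was Pkp2, the plakophilin of heart and simple epithelia. Its level was 109 CPM in cSCC 21 and 2.08, 6.15 and 3.41 CPM in cSCC 18, 19 and 20, against 1.58 to 11.3 CPM in NS, so that only cSCC 21, the library with heart muscle transcripts, lay above every NS. Without both cSCC 20 and 21, Pkp2 was not called (log2 fold change -0.14, adjusted p = 0.925 vs. NS and 0.85, adjusted p = 0.502 vs. AK), and neither was it without cSCC 21 alone. Ppl was called in both comparisons without these 2 libraries (-2.36 and -1.90), Dsg1c was called vs. NS (-1.88) and not vs. AK (-1.69, adjusted p = 0.149), and Evpl vs. NS (-0.96, adjusted p = 0.173) and Perp vs. AK (-0.69, adjusted p = 0.225) were not called. The Evpl call was also lost without cSCC 20 or cSCC 21 alone, that of Dsg1c vs. AK without cSCC 19 or cSCC 21, and that of Perp in 11 of the 12 settings that left out 1 sample.

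Of 8 adherens junction genes, 0 were called in AK vs. NS, where 2.26% of all genes were called higher and 2.38% lower. In cSCC vs. NS 5 were lower and in cSCC vs. AK 4 were lower, against 7.65% and 8.34% of all genes. Cdh1 fell with a log2 fold change of -1.61 (SE 0.35, adjusted p = 0.00777 by edgeR) vs. NS and -1.43 vs. AK. Also lower in both were Pvrl4 (nectin-4, -2.54 and -2.36), Mllt4 (afadin, which ties nectins to actin, -2.05 and -1.35) and Pvrl1 (nectin-1, -1.33 and -1.12), and Ctnnd1 (p120-catenin, -1.03) was lower vs. NS. Of 8 epidermal keratins, 0 were called in AK vs. NS. In cSCC vs. NS 2 were lower and in cSCC vs. AK 2 were lower, against 7.65% and 8.34% of all genes. These were Krt1 and Krt10, the pair of differentiating suprabasal cells. Their log2 fold changes were -3.46 and -4.05 vs. NS and -3.02 and -3.12 vs. AK. Krt5, Krt14, Krt15, Krt6a, Krt16 and Krt17 were not called. Without both cSCC 20 and 21, Cdh1 (-1.23 and -1.05), Pvrl4 and Mllt4 were called in both comparisons, and Pvrl1 (-0.83, adjusted p = 0.139 vs. NS and -0.65, adjusted p = 0.268 vs. AK) and Ctnnd1 (-0.77, adjusted p = 0.127) were not. Krt10 was then called vs. NS (-3.29, adjusted p = 0.0463) and not vs. AK (-2.37, adjusted p = 0.127), and Krt1 in neither (-2.68, adjusted p = 0.0903 and -2.24, adjusted p = 0.104). With 1 sample left out, the calls of Krt1 were lost without cSCC 19 or cSCC 20 in both comparisons, that of Krt10 vs. AK without cSCC 20, that of Ctnnd1 without cSCC 21, and those of Pvrl1 without cSCC 19 or cSCC 21 vs. NS and in 10 of 12 settings vs. AK. The lower Dsg1a and Dsc3 thus stood beside lower Krt1, Krt10 and Cdh1 in the same group. In cSCC 18, Krt1 (820 CPM) and Krt10 (321 CPM) lay below every NS (lowest 933 and 899 CPM). Both lay inside the AK ranges (578 to 3918 CPM and 231 to 1907 CPM), a place that rests on the low TMM factor of cSCC 18. The part of these changes in each other was not tested.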

How the data were processed

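RNA-seq counts of mouse skin were used for NS (n = 8), AK (n = 8) and cSCC (n = 4), grouped by their labels. The authors deposited a table of raw, unnormalized counts by gene symbol. By the paper, reads were trimmed with Trimmomatic and aligned to GRCm38 with HISAT2, and genes were quantified with StringTie. The submitters' processing notes name Trimmomatic 0.36, HISAT2 2.0.5 and featureCounts 1.5.2 and the builds mm9 and hg19, so the counting tool and the annotation behind the deposited counts are not settled. The strand used in counting and the treatment of reads shared by gene copies are not given in the sources used here. Totals were 775750 to 14055206 counts per sample. The Wilson intervals of shares and the floors cover counting error only, whereas the intervals of log2 fold changes also reflect the spread between samples.

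CPM used TMM factors over all 20 samples, computed by edgeR 4.0.16 under R 4.3.3. Each comparison used only the samples of the groups compared, genes kept by filterByExpr and edgeR's quasi-likelihood test, with Benjamini-Hochberg adjustment over all genes tested. Genes were called at an adjusted p under 0.05 and a fold above 1.5 or below 0.67. The test was checked on simulated counts. Ratios within a sample had 0.5 added to both counts and were compared by two-sided exact permutation (Python 3.11.15, numpy 2.4.6, scipy 1.17.1). Isoform ratios were adjusted over their 12 tests. Ratios to Krt5 and Krt14 were planned to be adjusted over the members, and were adjusted over all genes tested instead, because the members were known. CPM per kb used the union of exons in GENCODE M21 on GRCm38, and promoter bases came from RefSeq, which had entries for Jup and Dsp but not for Pkp1.

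The members and gene lists were chosen with earlier results of these data known. All members are named in every comparison, and genes of the other lists are named where called. Alternatives were library size alone, upper quartile factors, DESeq2 1.42.0, limma 3.58.1 voom with quality weights, other count filters, all 20 samples in 1 fit, no fold limit, the unadjusted equal-variance test of the study, 5 counts added to ratios, Cdh1 as reference, and leaving out each sample in turn or cSCC 20 and 21 together. Within groups, 62 pairs of samples all differed beyond sampling noise (chi-square per degree of freedom at least 11.3). No sequencing batch is given in the labels.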

Additional observations from a re-analysis of the deposited data

Results flagged for a closer look

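Over 42 sets of values (each member and each isoform ratio in each group), 4 held a sample whose gap to its nearest neighbour was wide for the range of its group, and chance flags about 1 set in 20. In AK, replicate 10 was lowest for Dsc2, at 4.44 on the log2(CPM + 1) scale with the next AK at 6.01, and for the log2 ratio of Dsc2 to Dsc3, at -5.65 with the next at -3.69. AK 10 was the most deeply sequenced sample. In NS, replicate 2 was lowest for Dsp, at 10.03 on the log2(CPM + 1) scale with the next NS at 10.86, and for Pkp1, at 8.44 with the next at 9.11. NS 2 was also the lowest NS for Dsg1a, Dsc3 and Jup.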

How the results depend on the processing

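Of 686 refits of single members, 601 kept their direction and side of the threshold, 31 lost a call, 28 gained one and 26 changed sign, all of these uncalled. In AK vs. NS the number of members called was 2 with limma voom, 0 with all 20 samples in 1 fit and 1 to 2 when each sample was left out, 2 without NS 8. The log2 fold changes near 0 turned for Dsg1a and Dsp with library size alone (-0.080 and -0.059), upper quartile factors (-0.025 and -0.023), limma voom (-0.11 and -0.0030) and at least 10 counts in every sample (-0.059 and -0.050). When each sample was left out they ran from -0.11 to 0.16 for Dsg1a, -0.050 to 0.081 for Dsp and -0.20 to 0.068 for Dsg2. In cSCC vs. NS the number called was 7 with library size alone, 7 with all 20 samples in 1 fit, 8 with the unadjusted test of the study, and 3 to 8 when each sample was left out, 8 without cSCC 18. Jup turned to -0.27 with library size alone, -0.029 with upper quartile factors, -0.20 with limma voom, -0.029 with no count filter, -0.061 with all 20 samples in 1 fit and -0.17 without both cSCC 20 and 21, and ran from -0.26 to 0.14 when each sample was left out. In cSCC vs. AK the number called was 2 without both cSCC 20 and 21 and 2 to 6 when each sample was left out, 2 without cSCC 20 and 3 without AK 15, AK 17 or cSCC 19. The Dsg3 call in cSCC vs. NS was also lost with library size alone, upper quartile factors, limma voom and no count filter. The cause of these changes was not tested. Apart from library size alone, the share of all genes called in these settings is not given here. The numbers of members called in them therefore cannot be set against such a share.

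Of the 4 isoform ratios, 1 to 2 passed in AK vs. NS when each sample was left out (2 without NS 8). The ratio of Dsc3 to Dsc1 in cSCC vs. NS ran from -0.066 to 1.24. With 5 counts added, the ratio of Dsg2 to Dsg3 in cSCC vs. AK missed the threshold (-0.92, adjusted p = 0.052 by exact permutation). With Cdh1 as reference in place of Krt5 and Krt14, 6 members passed in cSCC vs. NS (5 higher, 1 lower) and 7 in cSCC vs. AK (4 higher, 3 lower), where 64.8% and 65.1% of all genes were higher and 2.16% and 1.76% lower. Differences then turned in AK vs. NS for Dsg1a (0.19), Dsg1b (0.31), Dsg2 (0.046), Dsc3 (0.26), Pkp1 (0.38) and Dsp (0.18). In cSCC vs. NS they turned for Dsg1b (0.48), Dsg2 (0.85), Jup (1.72), Pkp1 (0.58) and Dsp (0.70), and in cSCC vs. AK for Dsg1b (0.17), Dsg2 (0.81), Pkp1 (0.20) and Dsp (0.52). Relative to the keratins without both cSCC 20 and 21, Dsg3 (-0.091) and Jup (-0.59) turned in cSCC vs. AK. With each sample left out, 0 to 1 members passed in AK vs. NS (Jup without NS 8), and Jup ran from -0.81 to 0.19 in cSCC vs. NS and from -0.10 to 0.90 in cSCC vs. AK. With 2 cSCC left the permutations are few, so a lost call there says nothing about stability.

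No paired analysis was possible because the mouse of origin is missing from the labels and the groups share no replicate number. Depth limited the low members in cSCC 20, where 3 counts equal 3.41 CPM.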
